A study of Homo sapiens with 12 samples.

Results

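This account concerns 10 genes of the acute phase response and of antimicrobial defence in MDA-MB-231, a line of human breast cancer cells whose p53 is mutant. They were taken by their symbols in the platform annotation: the serum amyloid genes SAA1 and SAA2, the pentraxin PTX3, the complement genes C3 and CFB, the lipocalin LCN2, the protease inhibitors SERPINA3, PI3 and SLPI, and the superoxide dismutase SOD2. They are 10 of the 20042 genes that the annotation names, with 15 of the 47322 probes on the array, 3 each for SAA1 and SOD2, 2 for C3 and 1 for each of the others. The cells received a control siRNA or an siRNA against p53, which the labels describe as depletion of the mutant protein, and 48 h later went from 10% to 0.1% serum with or without tumour necrosis factor (TNF) at 10 ng/ml for 20 h. All 4 groups therefore shared transfection and low serum, and each held 3 bead arrays that the labels call biological replicates, although nothing says that the cultures were grown separately beyond that, so p-values here reflect array-to-array spread, which may be technical. A single line was used, and effects of an siRNA that do not pass through p53 cannot be told apart from those of p53.

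Acute phase proteins are secreted in large amounts during infection and injury, classically by the liver under interleukin 6 and interleukin 1 and also by epithelial cells at the site of inflammation. Serum amyloid A proteins are lipid-carrying acute phase proteins. PTX3 is a soluble pattern recognition protein, C3 is the central component of complement, and CFB supplies the protease of the alternative complement pathway. LCN2 withholds iron from bacteria by binding their siderophores. SERPINA3, PI3 (elafin) and SLPI restrain neutrophil proteases, and SOD2 removes superoxide in mitochondria. TNF reaches such genes mainly through the transcription factor NF-kB, with C/EBP and STAT3 proteins as partners.

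Median intensity per array lay between 226 and 266, and 19810 to 21157 probes passed a detection p under 0.05. Over the 12507 genes tested, arrays of a group correlated at 0.974 to 0.993, the lowest values being those of replicate 3 of the untreated p53 siRNA group. Of 8 markers listed for this line, 6 were detected on all 12 arrays, among them VIM, CD44, CAV1 and AXL, whereas ZEB1 was detected on 6 and SPARC on 0. Of 6 genes listed as absent from it, ESR1, PGR and CDH1 were detected on 0 arrays, while EPCAM was detected on 12, GATA3 on 10 and FOXA1 on 9. Among defining markers of other cells, PTPRC, CD3E and HBB of blood cells, CDH5 and VWF of endothelium, and APOB, TTR and FGB of hepatocytes were detected on 0 arrays, and CD14, LYZ, PECAM1, PDGFRB and ALB on all 12. The remaining markers were detected on 11 (COL1A1), 8 (APOA1), 6 (DCN), 4 (COL3A1) and 1 (COL1A2) of the arrays. What part these transcripts have in the results was not tested. In RNA from whole cultures, fewer cells of a kind and less RNA per cell cannot be told apart.

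**Figure D1:**
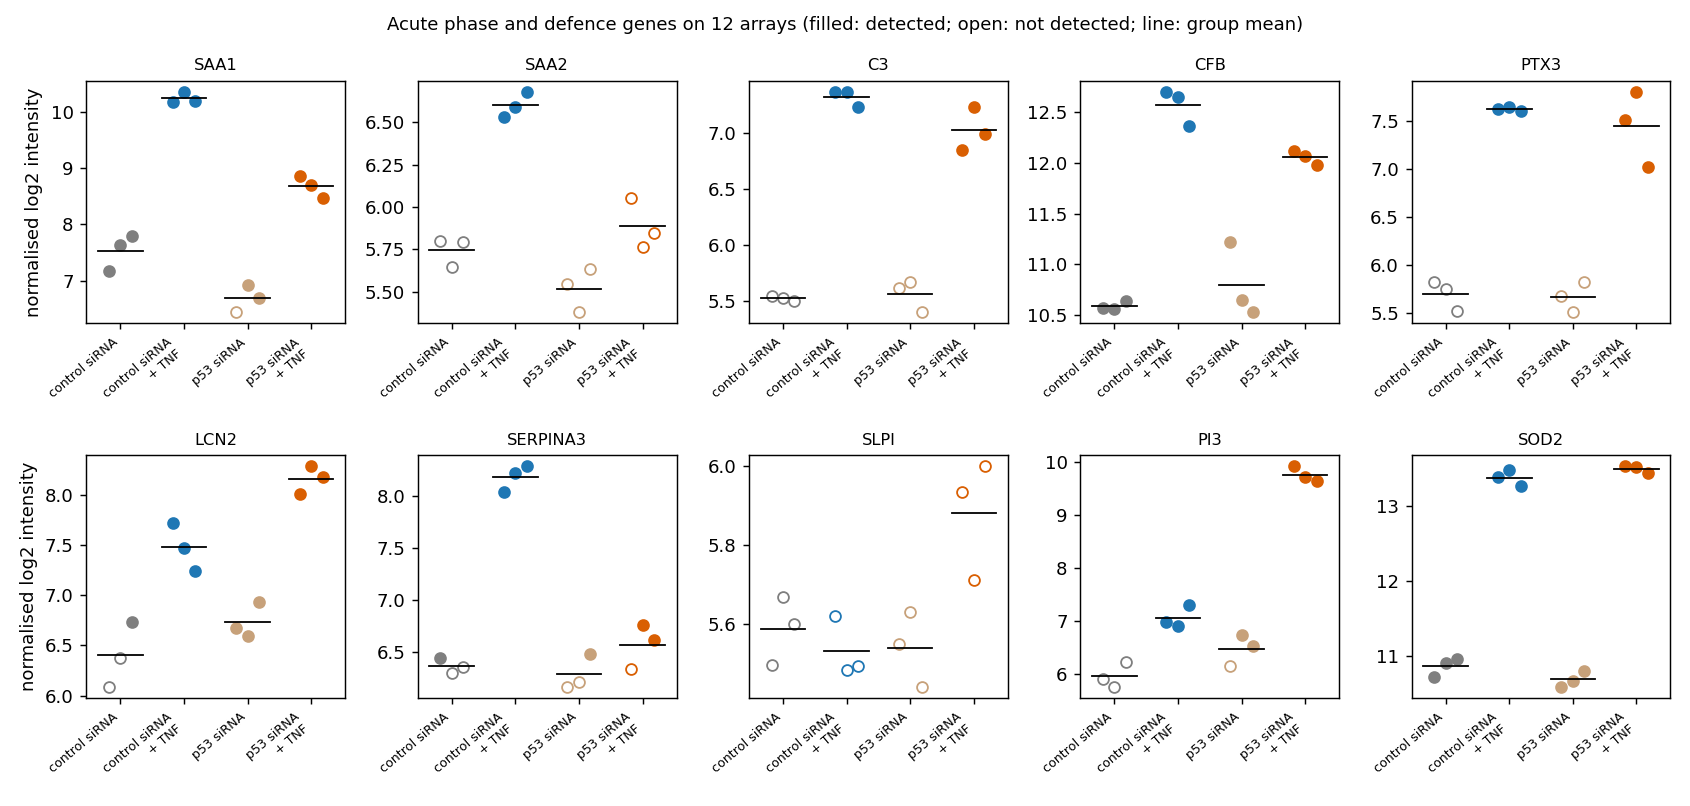
Normalised log2 intensity (vertical axis) of each of the 10 genes in the 4 groups (horizontal axis), 1 point per array; filled points were detected, open points were not, and the line is the group mean. SERPINA3 stood at 8.18 on the control siRNA TNF arrays and at 6.57 on the p53 siRNA TNF arrays, PI3 ran the other way at 7.07 and 9.75, and no SLPI point was detected.

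The promoters are shown for the 4 genes with a single start in the RefSeq promoter table (GRCh38.p14). Of these, SERPINA3 had a called TNF response with the control siRNA only, and CFB, PTX3 and LCN2 had one with each siRNA. The table matched 5 of the 10 genes, including SOD2 with 4 starts, and SAA1, SAA2, C3, SLPI and PI3 were not matched. Each line gives the 250 bases before the start, 5′ to 3′ on the + strand, where all 4 genes lie. Capitals mark matches on either strand to a loose NF-kB-type decamer (GGG, any 5 bases, CC) or to TTCNNNGAA, a STAT-type palindrome. The windows are chr6:31945845-31946094 for CFB, chr3:157436600-157436849 for PTX3, chr9:128149203-128149452 for LCN2 and chr14:94612141-94612390 for SERPINA3.
CFB: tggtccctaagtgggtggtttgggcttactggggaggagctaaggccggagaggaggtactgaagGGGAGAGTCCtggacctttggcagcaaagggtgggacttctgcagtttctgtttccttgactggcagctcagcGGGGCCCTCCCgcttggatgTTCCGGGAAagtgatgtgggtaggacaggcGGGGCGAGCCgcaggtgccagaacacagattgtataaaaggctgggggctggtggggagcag
PTX3: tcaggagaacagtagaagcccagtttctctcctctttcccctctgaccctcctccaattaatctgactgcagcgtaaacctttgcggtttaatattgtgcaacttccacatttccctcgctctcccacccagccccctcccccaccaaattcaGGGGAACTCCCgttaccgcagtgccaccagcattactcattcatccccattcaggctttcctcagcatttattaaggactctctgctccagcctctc
LCN2: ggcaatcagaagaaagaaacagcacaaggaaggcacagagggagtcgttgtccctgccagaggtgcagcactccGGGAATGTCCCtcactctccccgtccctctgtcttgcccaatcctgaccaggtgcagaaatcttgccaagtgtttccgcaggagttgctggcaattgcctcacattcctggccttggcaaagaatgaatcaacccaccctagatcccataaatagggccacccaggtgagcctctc
SERPINA3: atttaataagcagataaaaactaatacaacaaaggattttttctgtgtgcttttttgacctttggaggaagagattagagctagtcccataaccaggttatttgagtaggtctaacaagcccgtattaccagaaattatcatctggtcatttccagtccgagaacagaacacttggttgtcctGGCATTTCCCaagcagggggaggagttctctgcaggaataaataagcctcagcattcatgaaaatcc
The loose decamer was found in 54.4% of the 34943 promoter windows of this length, so its presence in these windows is common. The narrower NF-kB consensus decamer, which lies within the loose form, matched in CFB, PTX3 and LCN2, at positions beginning 112, 97 and 175 bases before the start (a second PTX3 match began at 96), and in 9.95% of windows. It was not matched in SERPINA3 or in any of the 4 SOD2 windows. The STAT-type palindrome TTCCGGGAA lay 92 bases before the CFB start and was matched in no other member's window, against 6.56% of all windows. A C/EBP-type core, TTNNGNAA, not capitalised above, was matched in PTX3, LCN2 and SERPINA3 and before 1 of the SOD2 starts, and in 33.2% of windows. In SERPINA3 it overlapped the loose decamer. A match of letters is no measure of binding, and whether the matches relate to the TNF responses was not tested.

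The first question was how TNF moved these genes in cells with the control siRNA and in cells with the p53 siRNA. A probe was kept if detected on at least 3 of the 12 arrays, which held for 12 of the 15 probes and 9 of the 10 genes, SLPI being the exception. Intensities were background-corrected, quantile-normalised and taken to log2, and all 12507 genes were fitted together with limma, whose Benjamini-Hochberg adjusted p over all genes is given throughout, with a call at an adjusted p under 0.05. All 9 genes tested rose with TNF in control siRNA cells, where 4.89% of all genes rose and 4.69% fell (9.59% were called in either direction). With the p53 siRNA 7 of the 9 rose, and 3.95% of all genes did, with 3.85% falling (7.8% in either direction). Groups of 3 arrays that do not overlap are common in these data: they were seen for 33.7% of all genes with TNF and control siRNA, 23.3% with TNF and p53 siRNA, 43.2% between siRNAs without TNF and 53.9% with TNF. SAA2, C3 and PTX3 passed the filter only through TNF arrays and so had to differ there, and PI3 and SERPINA3, with 2 untreated detections each, also needed TNF arrays to pass, which is why these counts are a description and not evidence about the set. The median log2 change of the 9 was 1.82 and 1.46, against -0.01 for all genes in each. With undetected genes at their bound it was 1.19 and 1.33. The 1.33 leaves out SAA2, undetected in both p53 siRNA groups, so these 2 medians cover different genes.

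SAA1 was read by its brightest probe at raw intensities of 335, 374 and 405 on the untreated control siRNA arrays and at 1506, 1748 and 1281 with TNF. In p53 siRNA cells it read 263, 292 and 296 untreated and 566, 587 and 556 with TNF. No 2 groups overlapped, and the order from low to high was untreated p53 siRNA, untreated control siRNA, p53 siRNA with TNF and control siRNA with TNF. TNF raised SAA1 6.50-fold in control siRNA cells, a log2 change of 2.70 ± 0.18 (SE, n = 3 against 3; limma adjusted p = 1.34e-06), and 3.96-fold with the p53 siRNA (1.99 ± 0.18, adjusted p = 2.07e-05). The p53 siRNA lowered it 1.80-fold without TNF and 2.95-fold with TNF (limma adjusted p = 0.00278 and 5.15e-05). The gap between both TNF responses was -0.71 ± 0.25 log2 and was not called over all genes (limma adjusted p = 0.327), although its own 95% interval ran from -1.25 to -0.17. On 1 of the 3 untreated p53 siRNA arrays SAA1 was not detected.

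The other SAA1 probes bear on how firmly this reads. The probe ILMN_1701017 changed by 2.04 ± 0.16 with TNF in control siRNA cells, was undetected on all 3 untreated p53 siRNA arrays and so at least 1.72-fold higher with TNF in p53 siRNA cells, and was at -1.36 ± 0.16 under TNF with the p53 siRNA against control (limma adjusted p = 9.66e-06, 0.00135 and 0.000126 over all kept probes). Without TNF this probe was at least 1.07-fold lower with the p53 siRNA (limma adjusted p = 0.0489 over all kept probes). ILMN_1808732 was detected on 0 of 12 arrays, with intensities of 176 to 253. SAA2, a near-identical neighbour whose transcript a probe for SAA1 might also bind, gave 277, 306 and 283 on the control siRNA TNF arrays. All 9 other arrays read between 149.8 and 215 and were undetected. SAA2 was thus at least 1.12-fold higher with TNF in control siRNA cells (mean log2 of 6.60 against a measured 5.75; limma adjusted p = 0.000551) and at least 1.08-fold lower with the p53 siRNA under TNF (5.89; adjusted p = 0.000684). SAA2 passed the filter only through the control siRNA TNF arrays, so both directions were set by the filter and these values are a description. No fold is given in p53 siRNA cells, where both groups were undetected. Probe sequences were not used here, so how far the SAA1 and SAA2 probes share transcripts was not tested.

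**Figure D2:**
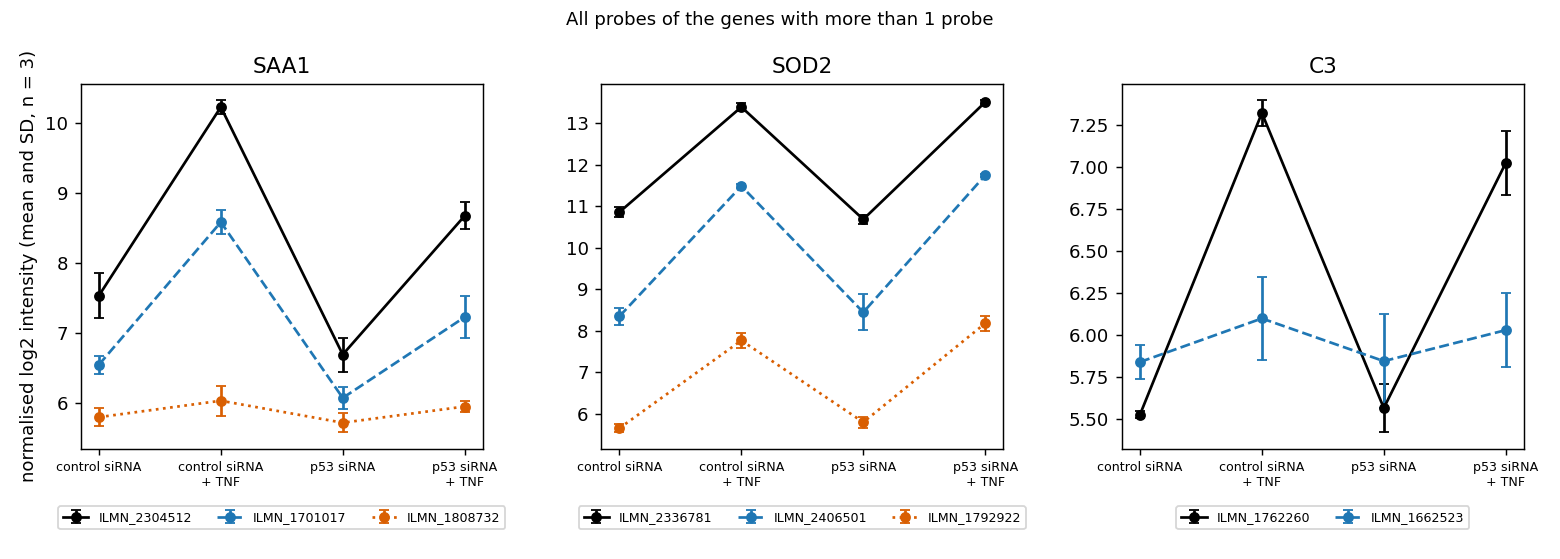
Mean and SD (n = 3) of the normalised log2 intensity (vertical axis) in the 4 groups (horizontal axis) for every probe of the 3 genes with more than 1 probe. All 3 SOD2 probes rose with TNF under each siRNA. Between the untreated siRNA groups ILMN_2336781 was at -0.18 log2 and ILMN_2406501 at 0.10, neither of them called. In SAA1, 2 probes followed the same course, while ILMN_1808732 of SAA1 and ILMN_1662523 of C3 were detected on 0 arrays.

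PTX3, C3 and CFB stand for pattern recognition and complement. PTX3 read 199.5, 199 and 166 on untreated control siRNA arrays and 408, 436 and 373 with TNF. In p53 siRNA cells it read 187, 167 and 214 untreated and 334, 407 and 326 with TNF. It was undetected on all 6 untreated arrays and detected on all 6 TNF arrays, whose siRNA groups overlapped. PTX3 was at least 2.29-fold higher with TNF in control siRNA cells and at least 2.0-fold higher with the p53 siRNA (limma adjusted p = 1.88e-05 and 4.84e-05). As it passed the filter only through TNF arrays, that direction was set by the filter. Under TNF the siRNAs differed by -0.18 ± 0.17 log2, p53 siRNA minus control (95% interval from -0.56 to 0.20; limma adjusted p = 0.485).

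C3 had the same on and off pattern, with 165, 173 and 163.5 in untreated control siRNA cells and 369, 395 and 331 with TNF. The p53 siRNA arrays gave 181, 186 and 162.5 untreated and 276, 336 and 321.5 with TNF. It was at least 1.85-fold higher with TNF in control siRNA cells and at least 1.49-fold higher in p53 siRNA cells (limma adjusted p = 1.82e-06 and 1.18e-05). As with PTX3, the filter set this direction. Under TNF the C3 difference between siRNAs was -0.30 ± 0.12 log2 (adjusted p = 0.0822), a value that became a call with median scaling (-0.43, adjusted p = 0.0454), with array weights (0.0346), and without replicate 3 of the untreated (0.0389) or replicate 2 of the TNF-treated p53 siRNA group (0.0396). The other C3 probe, ILMN_1662523, was detected on 0 arrays, so C3 rests on a single probe.

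CFB was detected on all 12 arrays. In control siRNA cells its intensities were 1872, 1647 and 1801.5 untreated and 7814, 7874 and 5179.5 with TNF. Those of p53 siRNA cells were 2305, 1533.5 and 1872 untreated and 3926, 4286 and 4332 with TNF. The untreated siRNA groups overlapped and the TNF groups did not. TNF raised CFB 3.93-fold in control siRNA cells (1.98 ± 0.16 log2, adjusted p = 9.64e-06) and 2.38-fold with the p53 siRNA (1.25 ± 0.16, adjusted p = 0.000491; both limma). Under TNF it was 1.43-fold lower with the p53 siRNA (limma adjusted p = 0.0326), a call that was lost without replicate 1 or 2 of the control siRNA TNF group (0.104 and 0.0960) and without replicate 1, 2 or 3 of the p53 siRNA TNF group (0.0626, 0.0744 and 0.0990). The difference between its TNF responses was -0.72 ± 0.23 log2, with a 95% interval from -1.23 to -0.22, and was not called over all genes (adjusted p = 0.284).

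LCN2 rose with TNF in both siRNA backgrounds, and under TNF it was higher with the p53 siRNA. After normalisation LCN2 groups overlapped only between the siRNAs without TNF, while the raw intensities of the siRNA groups also overlapped with TNF. It read 228, 257 and 285 on untreated control siRNA arrays, of which 1 was detected, and 422, 410.4 and 331 with TNF. The p53 siRNA arrays read 282.5, 266.5 and 323 untreated and 393, 486.5 and 486 with TNF. TNF raised LCN2 2.10-fold in control siRNA cells and 2.67-fold in p53 siRNA cells (1.07 ± 0.18 and 1.42 ± 0.18 log2; limma adjusted p = 0.00221 and 0.000367). Under TNF it was 1.60-fold higher with the p53 siRNA after normalisation (limma adjusted p = 0.0126). This call was lost with median scaling (0.49 log2, adjusted p = 0.112) and without replicate 3 of the control siRNA TNF group (0.0580) or replicate 2 of the p53 siRNA TNF group (0.0507). The difference between its TNF responses was 0.34 ± 0.25 log2, with an interval from -0.20 to 0.89.

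Among the antiproteases SERPINA3 lost its response to TNF as a call and PI3 had a larger one. SERPINA3, antichymotrypsin, inhibits cathepsin G and chymase. It read 262, 250.2 and 252.5 on untreated control siRNA arrays and 488, 553.5 and 484 with TNF. In p53 siRNA cells it read 237, 236 and 274 untreated and 238, 293.5 and 288 with TNF. The 3 control siRNA TNF arrays lay above all 9 others, and the p53 siRNA groups with and without TNF overlapped. TNF raised SERPINA3 3.53-fold in control siRNA cells (1.82 ± 0.14 log2, limma adjusted p = 3.83e-06), whereas the change with the p53 siRNA was 0.28 ± 0.14 (95% interval from -0.01 to 0.58, adjusted p = 0.259). The difference between those responses was -1.54 ± 0.19 log2, from -1.95 to -1.12 (limma adjusted p = 0.00572). Without TNF the siRNAs differed by -0.08 ± 0.14 (adjusted p = 0.697), and under TNF SERPINA3 was 3.06-fold lower with the p53 siRNA (adjusted p = 8.44e-06). It was detected on 1 of 3 arrays in each untreated group and on 2 of 3 p53 siRNA arrays with TNF, so those levels lay near background.

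PI3, elafin, inhibits neutrophil elastase and proteinase 3. On untreated control siRNA arrays it was undetected at 208, 201.5 and 241, and with TNF it read 323, 339 and 339. In p53 siRNA cells it read 237, 279 and 279 untreated, with 2 of 3 arrays detected, and 978, 986 and 1003 with TNF. The 3 p53 siRNA TNF arrays stood above all others, and neither TNF group overlapped another group. TNF raised PI3 9.64-fold with the p53 siRNA (3.27 ± 0.17 log2, limma adjusted p = 4.09e-07) and at least 1.55-fold with the control siRNA (adjusted p = 0.00167). The fitted difference between the responses was 2.17 ± 0.25 log2, from 1.63 to 2.71 (limma adjusted p = 0.00505), and it rests in part on the undetected control group. Both TNF groups were detected on all arrays, and between them PI3 was 6.43-fold higher with the p53 siRNA (2.68 ± 0.17, adjusted p = 1.81e-06). Without TNF it was at least 1.04-fold higher with the p53 siRNA (adjusted p = 0.0371), in groups that overlapped. That last call was lost in the authors' processed table, with array weights and when just these groups were fitted (adjusted p = 0.0601, 0.0717 and 0.0942), and without replicate 1 or 2 of the untreated control siRNA group (0.100 and 0.135) or replicate 2 or 3 of the untreated p53 siRNA group (0.126 and 0.0695).

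SLPI, the secretory leukocyte peptidase inhibitor, belongs to the same whey acidic protein family as PI3. Its single probe was undetected on all 12 arrays. The intensities ran from 159 to 190.2 in untreated control siRNA cells, 167 to 185 with TNF, 168 to 182 in untreated p53 siRNA cells and 196 to 229 with TNF. They were not tested, and a transcript below the reach of this probe cannot be told apart from none.

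SOD2 rose with TNF under each siRNA, in all 3 of its probes. The probe ILMN_2336781 read 2033, 2026 and 2175 in untreated control siRNA cells and 12340.1, 14213 and 9556 with TNF. In p53 siRNA cells this probe read 1578, 1549.9 and 2165 untreated and 10227, 11582 and 11706 with TNF. On this probe every TNF array lay above every untreated array, and its siRNA groups overlapped in both states after normalisation. TNF raised SOD2 5.78-fold with the control siRNA (2.53 ± 0.11 log2, adjusted p = 3.75e-08) and 7.08-fold with the p53 siRNA (2.82 ± 0.11, adjusted p = 4.29e-08; both limma). The difference of 0.29 ± 0.16 log2 was not called (limma adjusted p = 0.552), and its interval from -0.05 to 0.63 leaves room for a response up to 0.63 log2 larger. ILMN_2406501 gave 3.14 ± 0.19 and 3.30 ± 0.19, and ILMN_1792922, undetected on all 6 untreated arrays, was at least 2.51-fold and 3.31-fold higher with TNF (limma adjusted p of 1.78e-06 or less over all kept probes). SOD2 was at -0.18 ± 0.11 without TNF and 0.12 ± 0.11 with TNF between the siRNAs, neither of them called (adjusted p = 0.241 and 0.463). Without TNF the probe ILMN_2406501 was at 0.10 ± 0.19. With TNF ILMN_2406501 was at 0.26 ± 0.19 and ILMN_1792922 at 0.41 ± 0.14, with an interval from 0.11 to 0.72 for the latter. Neither was called (limma adjusted p = 0.359 and 0.0507 over all kept probes). After normalisation the siRNA groups with TNF did not overlap on either of these probes, while their raw intensities did. The SOD2 value without TNF, read by ILMN_2336781, became 0.02 with the mean of the 3 probes, which includes the undetected one. The value of ILMN_2336781 with TNF became -0.08 with median scaling.

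**Figure D3:**
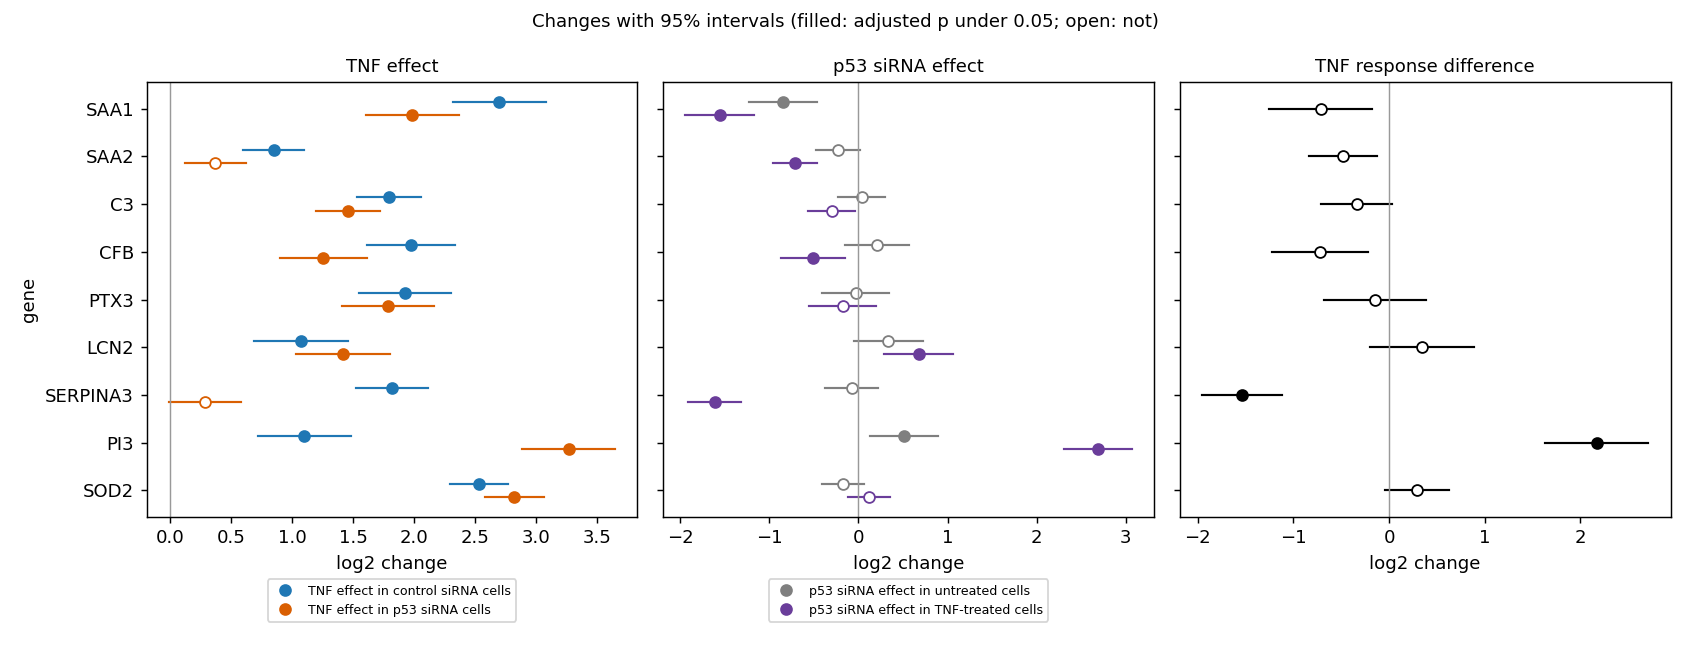
Log2 change (horizontal axis) of the 9 genes tested (vertical axis) with 95% intervals, for the TNF effect, the p53 siRNA effect and the difference between the TNF responses; filled points had an adjusted p under 0.05. In the right panel SERPINA3 at -1.54 and PI3 at 2.17 are the filled points, and the intervals of C3, PTX3, LCN2 and SOD2 include 0.

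The siRNA comparisons in all gave 2 of 9 genes called without TNF, PI3 higher and SAA1 lower, where 35.6% of all genes were called (17.7% higher and 17.9% lower). Under TNF 6 of 9 were called, PI3 and LCN2 higher and SAA1, SAA2, CFB and SERPINA3 lower, against 30.9% of all genes (14.4% higher and 16.5% lower). SAA2 passed the filter only through the control siRNA TNF arrays and so had to read lower here, which leaves this count a description. The difference in TNF response was called for 2 of 9, PI3 higher and SERPINA3 lower, against 27 genes or 0.216% of all (0.08% higher and 0.136% lower). With median scaling the median of all genes fell to -0.14 log2 without TNF and -0.15 with TNF in the siRNA comparisons, from 0.01 in both. Calls over all genes then split into 909 higher and 2773 lower without TNF, in place of 2215 and 2243, and into 623 and 2686 with TNF, in place of 1799 and 2064. For the TNF response difference that split was 1 and 11 in place of 10 and 17, or 26 and 26 in the authors' processed table. PI3, SAA1 and SERPINA3 kept their direction and their call under TNF, and PI3 and SERPINA3 their difference in response, under that scaling. Without replicate 3 of the untreated p53 siRNA group, 133 genes differed in TNF response, PI3 and SERPINA3 again among them.

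The genes whose arrays most resembled each member were found by the root mean square difference of log2 values over the 12 arrays, each gene centred on its mean. C3 and CFB lay 0.19 apart and C3 and PTX3 0.23, with C3 and PTX3 undetected on all 6 untreated arrays. Outside the members, SERPINA3 was nearest to CITED4 at 0.16 and CTSW at 0.18, whose TNF changes were 1.70 and 2.10 with the control siRNA and 0.40 and 0.30 with the p53 siRNA. LCN2 was nearest to CEBPD at 0.21, a C/EBP transcription factor gene with TNF changes of 1.02 and 1.30, and PTX3 to SERPINA1 at 0.22. C3 lay nearest to NFKBIA at 0.22 and CFB to TNIP1 at 0.22, both of which encode inhibitors of NF-kB signalling. The distance grows with a gene's own spread, so distances of different members are not ranked. The nearest gene to SAA1 was UBD at 0.42, to PI3 C11orf96 at 0.47 and to SOD2 CLDN1 at 0.29. For SAA2 it was PARP8 at 0.11, in a range where SAA2 was mostly undetected. These distances describe 12 arrays that share 4 groups and are given without a test.

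Other genes of the same systems are given in 7 lists. They are not contrasted with the members, because members and lists were chosen with earlier results known and several members needed TNF arrays to pass the filter. A list gene that passed only through certain groups likewise had to read higher in them. Their counts are to be read beside the shares of all genes called. For TNF these were 4.89% higher and 4.69% lower with the control siRNA, and 3.95% and 3.85% with the p53 siRNA. Between siRNAs they were 17.7% higher and 17.9% lower without TNF, and 14.4% and 16.5% with TNF. Of 23 further acute phase proteins listed, 5 were tested. SERPINA1, alpha-1 antitrypsin, rose by 1.80 ± 0.15 log2 with TNF in control siRNA cells and 1.88 ± 0.15 in p53 siRNA cells, and LRG1 rose by 0.93 ± 0.20 in control siRNA cells (limma adjusted p = 7.51e-06, 7.07e-06 and 0.0112). LRG1 was lower under TNF with the p53 siRNA, at -0.76 ± 0.20 (limma adjusted p = 0.0129). No other acute phase gene tested was called in a TNF or siRNA comparison, and the medians of the 5 were -0.01 and 0.15 for TNF, and 0.03 and 0.12 for the siRNA without and with TNF.

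Complement genes other than C3 and CFB were mostly not raised by TNF. Of 15 tested, 2 rose and 4 fell in control siRNA cells (median -0.12), and 0 rose and 2 fell in p53 siRNA cells (median -0.0035). C1S, a protease of the classical pathway, rose by 1.10 ± 0.20 in control siRNA cells, while C5 was at -1.33 ± 0.14 and properdin, CFP, was at -0.95 ± 0.18 (limma adjusted p = 0.00361, 7.01e-05 and 0.00531). In p53 siRNA cells CFP was at -1.43 ± 0.18 and C5 at -0.61 ± 0.14 (limma adjusted p = 0.000372 and 0.0192). Between siRNAs 4 of the 15 were lower with the p53 siRNA without TNF and 8 with TNF, and 0 were higher (medians -0.34 and -0.53). With undetected genes at their bound these medians were -0.28 and -0.36. C5 was at -1.33 ± 0.14, C4BPB at -1.12 ± 0.13 and CFD, factor D, at least 1.46-fold lower without TNF (limma adjusted p = 2.58e-05, 6.17e-05 and 0.000313). Under TNF C1R was at least 1.89-fold lower, C1S at least 1.73-fold lower and CFP at -0.95 ± 0.18 (limma adjusted p = 4.96e-05, 0.00166 and 0.00186). CFD and C1R were detected on control siRNA arrays only, and C1S needed the control siRNA TNF arrays to pass the filter. Their lower values with the p53 siRNA, and the rise of C1S with TNF, were thus favoured by the filter, which leaves these counts a description. With median scaling 6 and 9 of the 15 were lower.

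Antimicrobial genes held large changes in both directions. Of 10 tested, 2 rose and 2 fell with TNF in control siRNA cells (median 0.01), and 2 rose and 1 fell in p53 siRNA cells (median 0.17). The chemokine CCL20, which has antimicrobial activity, was at least 6.78-fold higher in control siRNA cells and rose by 3.41 ± 0.15 log2 in p53 siRNA cells (limma adjusted p = 1.27e-07 and 1.07e-07). LYZ, lysozyme, was at -1.71 ± 0.19 and -1.53 ± 0.19 (limma adjusted p = 0.000124 and 0.000379). ADM, the peptide adrenomedullin, rose by 0.62 ± 0.15 and 0.58 ± 0.15, calls that were lost with median scaling (limma adjusted p = 0.0226 and 0.0362, then 0.0799 and 0.0948). Of the 10, the p53 siRNA left 3 higher and 1 lower without TNF and 3 higher and 0 lower with TNF (medians 0.0048 and 0.07). ADM was at 1.15 ± 0.15 and 1.11 ± 0.15, LYZ at 0.66 ± 0.19 and 0.84 ± 0.19, and CCL20 at 0.94 ± 0.15 with TNF, while DEFB1, a defensin, was at least 1.24-fold lower without TNF (limma adjusted p of 0.0194 or less). DEFB1 was detected on the untreated control siRNA arrays only and passed the filter through them, so it had to read lower in the other groups. It is counted among the genes that fell with TNF and as the gene lower without TNF, which leaves those counts a description.

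Of 18 antiprotease genes tested, 4 rose with TNF in control siRNA cells and 5 in p53 siRNA cells, and 0 fell (medians -0.01 and 0.02). The counts in p53 siRNA cells were 5 and 1 in the authors' processed table and with normexp at an offset of 50, and 4 and 0 with median scaling. SERPINA1 is given above. SERPINE2, protease nexin, rose by 1.66 ± 0.15 in control siRNA cells and the Kunitz inhibitor TFPI2 by 1.32 ± 0.34 and, in p53 siRNA cells, 2.35 ± 0.34 (limma adjusted p = 1.82e-05, 0.0308 and 0.00117). SPINK1, a trypsin inhibitor undetected with the control siRNA, rose by 1.22 ± 0.31 in p53 siRNA cells (limma adjusted p = 0.0337, and 0.0976 with median scaling). Between siRNAs 6 were higher with the p53 siRNA and 0 lower without TNF, and 8 higher and 1 lower with TNF (medians 0.16 and 0.21), counts that became 5 and 2, and 4 and 1, with median scaling. TIMP2, a metalloprotease inhibitor, was at 1.23 ± 0.12 and 1.39 ± 0.12, SERPINE2 at 1.40 ± 0.15 without TNF, and SPINK1 at least 1.28-fold and 3.01-fold higher (limma adjusted p of 0.0143 or less). SPINK1 passed the filter only through p53 siRNA arrays, those with TNF needed among them, and so had to read higher there. The counts that include it are a description. The gene that was lower, SERPINB1, is named here after its value was seen, at -0.70 ± 0.12. TFPI2 was at 1.24 ± 0.34 with TNF (adjusted p = 0.0166, and 0.0518 with median scaling).

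Other antioxidant genes did not share the change of SOD2. Of 24 tested, 1 rose and 4 fell with TNF in control siRNA cells, and 2 rose and 2 fell in p53 siRNA cells (medians 0.09 and 0.01). Glutathione peroxidase GPX3 was at -0.69 ± 0.13 and -0.56 ± 0.13 and catalase, CAT, at -0.51 ± 0.11 and -0.73 ± 0.11, the CAT call in control siRNA cells being lost with median scaling (limma adjusted p = 0.0106, then 0.0559). SOD3, the extracellular dismutase, was at -0.68 ± 0.18 in control siRNA cells (adjusted p = 0.0301, and 0.0772 with median scaling), and the peroxiredoxin PRDX4 at 0.49 ± 0.10 in p53 siRNA cells (adjusted p = 0.0119). Of the 24, 5 were higher with the p53 siRNA and 4 lower without TNF and 4 higher and 5 lower with TNF, against 1 and 6, and 1 and 5, with median scaling (medians 0.01 and -0.03, or -0.17 and -0.23). Over all genes 35.6% were called without TNF and 30.9% with TNF, so the main counts lie near the general share. GCLM, which supports glutathione synthesis, was at -0.95 ± 0.10 and -1.41 ± 0.10, HMOX1, heme oxygenase, at 1.30 ± 0.20 without TNF, and PRDX4 at -0.66 ± 0.10 without TNF. SOD3 at 0.87 ± 0.18 and GPX8 at -0.80 ± 0.23 were called with TNF (limma adjusted p = 0.0028 and 0.0190).

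Of 29 regulators of the acute phase response tested, 13 rose and 0 fell with TNF in control siRNA cells (median 0.57) and 13 rose and 0 fell in p53 siRNA cells (median 0.47), where the authors' processed table gave 13 and 1. IL6, the main inducer of acute phase genes in liver, rose by 3.63 ± 0.17 and 3.76 ± 0.17, and IL1B by 3.75 ± 0.11 and 2.88 ± 0.11 (limma adjusted p of 1.07e-07 or less). IL1A was at least 10.6-fold higher with TNF in control siRNA cells and rose by 3.12 ± 0.26 in p53 siRNA cells (limma adjusted p = 1.95e-06 and 1.11e-05). The siRNA comparison gave 7 higher and 3 lower without TNF and 5 higher and 7 lower with TNF (medians 0.11 and -0.20), or 3 and 5, and 5 and 10, with median scaling (medians -0.03 and -0.41). IL1B was at 2.09 ± 0.11 and 1.22 ± 0.11, and IL1A at least 4.84-fold higher without TNF and at 1.99 ± 0.26 with TNF (limma adjusted p of 0.000137 or less). ELF3, an epithelial transcription factor, was at -1.37 ± 0.24 without TNF and the receptor subunit IL1RAP at 0.97 ± 0.19 with TNF (limma adjusted p = 0.00104 and 0.00261). The TNF response difference was called for IL1B, at -0.87 ± 0.15 (limma adjusted p = 0.0496, and 0.163 with median scaling), and for no other gene of the 7 lists.

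The last list held receptors, proteases and other genes chosen for ties to the members' products. Of these 23 genes, 22 had a probe and 8 passed the detection filter and were tested. With TNF 2 rose in control siRNA cells and 1 in p53 siRNA cells, and 0 fell (medians 0.22 and 0.23). PRSS3, a trypsinogen, rose by 0.86 ± 0.13 and SCARB1, a lipoprotein receptor that binds serum amyloid A, by 0.36 ± 0.10 in control siRNA cells, and cathepsin L, CTSL, by 0.69 ± 0.15 in p53 siRNA cells (limma adjusted p = 0.00119, 0.0420 and 0.0161). The SCARB1 call was lost with median scaling (adjusted p = 0.256). Between siRNAs PRSS3 was at 1.41 ± 0.13 and 0.98 ± 0.13, the receptor TLR4 at 0.52 ± 0.12 without TNF, CTSL at 0.58 ± 0.15 with TNF and SCARB1 at -0.84 ± 0.10 with TNF (limma adjusted p of 0.0131 or less), the TLR4 and CTSL calls being lost with median scaling (0.174 and 0.0865). The counts were 2 higher and 0 lower without TNF and 3 higher and 1 lower with TNF, or 1 and 0, and 1 and 1, with median scaling (medians -0.01 and 0.23).

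**Figure D4:**
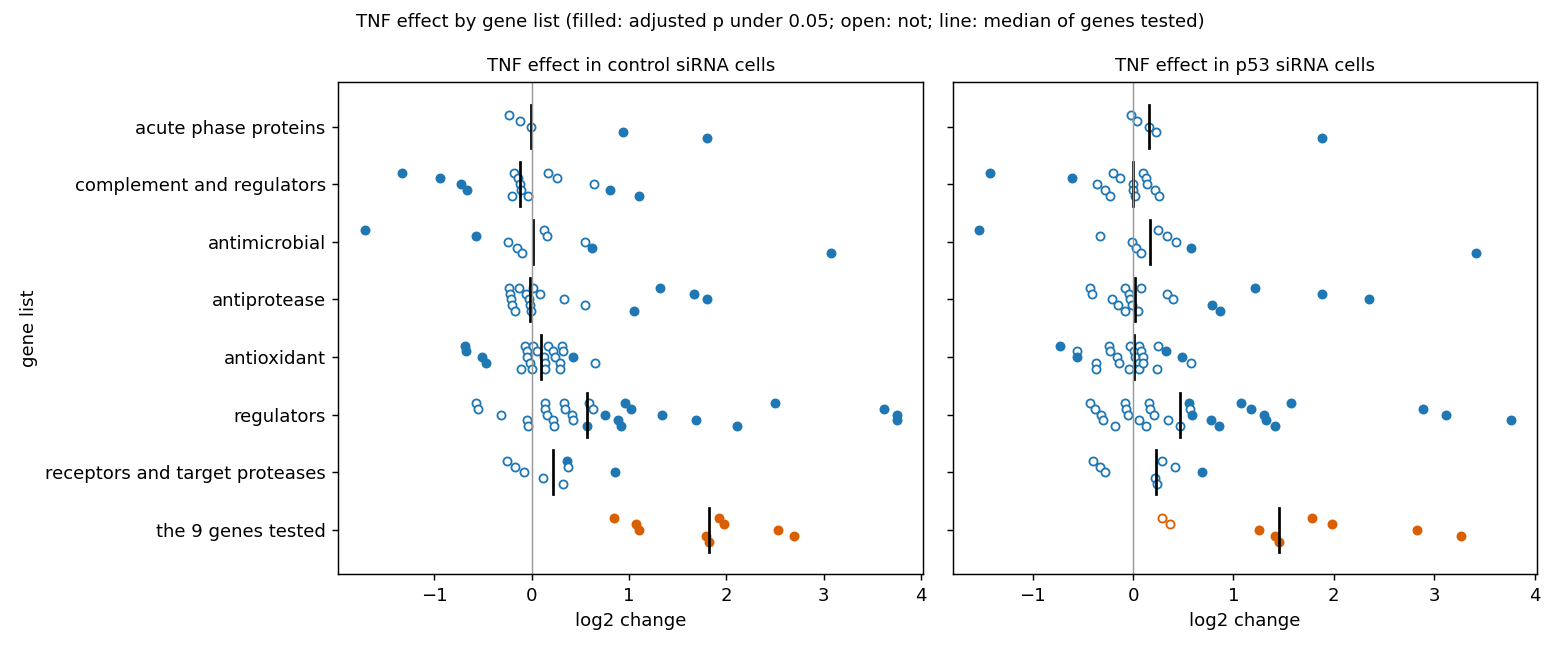
Log2 change with TNF (horizontal axis) of each gene tested in 7 lists and of the 9 members (vertical axis), in control siRNA cells and p53 siRNA cells; filled points had an adjusted p under 0.05, and the bar is the median. The members' medians were 1.82 and 1.46 as fitted, beside 0.57 and 0.47 for the regulators and -0.12 and -0.0035 for complement. With undetected genes at their bound the members' medians were 1.19 and, without SAA2, 1.33. The members were chosen with earlier results known, and several needed TNF arrays to pass the filter, so no contrast with the lists is drawn.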

How the data were processed

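Total RNA of MDA-MB-231 cells was read on 12 single-colour Illumina bead arrays, 4 groups of 3, grouped by the sample titles. Per the file headers, the deposited signal table gives an intensity and a detection p-value for each of 47322 probes, and the submitters' processing notes name GenomeStudio; how the deposited detection p-values were computed is not stated. The authors' processed intensity table, of 47313 probes, is linear with a median of 241.6 on every array and was used as an alternative only; how it was normalised stays unknown.

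Intensities were processed with neqc (offset 16) of limma 3.58.1 in R 4.3.3. Probes detected on at least 3 arrays (23079) were kept, 16849 with a single annotated gene. The brightest kept probe stood for each of 12507 genes. Of all probes, 30107 had 1 gene in the platform annotation, 8 several and 17207 none. lmFit and eBayes estimated 4 group means over the 12 arrays at once (residual degrees of freedom 8, prior 4.03). The 5 comparisons were tested 2-sided. The fit was tested on simulated data. A gene undetected on a whole group has only a bound there: "at least N-fold" divides the brighter group's mean by that of a floor, which on each dim array is the lowest detected value or the probe's own where that is higher. With genes at their bound, or left out where both groups were undetected, 26 of 35 list medians moved by 0.05 or less and the largest move was 0.18; the members' moved by 0.62 for TNF with the control siRNA.

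The members and lists were chosen with earlier results of these data known. All 10 members are named, and up to 3 called genes per list and comparison with the largest change. The transcript targeted by the p53 siRNA is not reported here, so the depletion was not checked. Replicate numbers are shared between groups, but same-numbered arrays did not deviate together: 1 of 18 pairs correlated over 0.1 (median 0.0033). The files name no slide or batch.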

Additional observations from a re-analysis of the deposited data

Results flagged for a closer look

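Taking p53 siRNA minus control siRNA, the TNF responses of SERPINA3 differed by -1.54 log2 and those of PI3 by 2.17 log2. Both were picked out because the test of the difference itself, limma's interaction term over 12507 genes, passed for them (adjusted p = 0.00572 and 0.00505). All 3 control siRNA TNF arrays showed SERPINA3 above every other array, and all 3 p53 siRNA TNF arrays did so for PI3. Over the alternatives, leaving out each array included, the SERPINA3 difference ran from -1.64 to -0.80 (adjusted p from 0.00369 to 0.0478) and the PI3 difference from 1.46 to 2.31 (adjusted p from 0.000311 to 0.0312). Neither could be tested among probes detected on all 12 arrays.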

How the results depend on the processing

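The members' calls for TNF stayed at 9 with the control siRNA and 7 to 8 with the p53 siRNA under every alternative that kept all 9 genes, and ran from 8 to 9 and 7 to 8 with an array left out. With the control siRNA the 8 came from leaving out replicate 1, 2 or 3 of its TNF group, when SAA2 no longer passed the detection filter. With the p53 siRNA the 8 came from leaving out replicate 3 of the untreated p53 siRNA group, when SAA2 gained a call (limma adjusted p = 0.0296). Without an array the siRNA calls ran from 1 to 2 without TNF and from 4 to 7 with TNF, and the response difference stayed at 2. With probes detected on all 12 arrays only CFB and SOD2 remained, and the calls were 2, 2, 0, 1 and 0 in the 5 comparisons. The 2 calls without TNF became 1 in the authors' processed table, with array weights and with only the compared groups.

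Counts over all genes moved more, and the cause was not tested. TNF calls with the control siRNA were 1199, or 2215 with array weights, 793 with median scaling and 733 to 1906 with an array left out. With the p53 siRNA they were 976, or 542 with median scaling, 310 with only the compared groups and 553 to 1730 with an array left out. The siRNA calls were 4458 and 3863, or 2954 without TNF with only the compared groups, and 3536 to 5077 and 2844 to 5057 with an array left out. Response differences numbered 27, or 12 with median scaling, 52 in the authors' processed table, 5 with probes detected on all arrays, 17 with the replicate block and 5 to 133 with an array left out. The highest counts, 1906, 1730 and 133, came without replicate 3 of the untreated p53 siRNA group, and the lowest response count without replicate 3 of the control siRNA TNF group. The replicate block changed no member's call.

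Uncalled values near 0 turned sign. The siRNA effect without TNF became -0.0012 for CFB and 0.0765 for PTX3 with median scaling, and 0.0215 for SOD2 with the mean of its probes; with TNF that of SOD2 became -0.0761 with median scaling. SAA2 gained calls with normexp at an offset of 50 for TNF with the p53 siRNA (0.60) and the siRNA without TNF (-0.43), and SAA1 a response difference in the authors' processed table (-0.80, adjusted p = 0.0341). With an array left out, the siRNA effect without TNF ran from -0.013 to 0.121 for C3, from -0.00141 to 0.346 for CFB and from -0.12 to 0.048 for PTX3, and for PTX3 with TNF from -0.358 to 0.0336, with a response difference from -0.326 to 0.0658. No slide is named in the files, so the slide block was not run, and the response difference has no fit of fewer than all 4 groups. Members near background (SAA2, C3, PTX3, LCN2, SERPINA3, PI3, and SAA1 in untreated p53 siRNA cells) are limited by signal over background.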
